A study of Mus musculus with 2 samples.

Results

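The 10 genes followed here encode receptors and bridging proteins through which phagocytes recognise phosphatidylserine on dying cells. They are the receptor tyrosine kinases Axl, Mertk and Tyro3, their ligands Gas6 and Pros1, the bridging protein Mfge8, the integrin subunit Itgav, the scavenger receptors Lrp1 and Stab1, and the phosphatidylserine-binding protein Anxa5. They were chosen by symbol from a table of 26601 named genes, and all 10 were found, each in a single row. Of the 10, 9 averaged at least 1 TPM (transcript abundance scaled by gene length and by the total of the library) and Tyro3 was listed at 0. Pros1 passed that limit through the Empty NP library alone.

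The samples were tumours of CT26, a mouse colon carcinoma line, implanted subcutaneously in BALB/c mice whose genotype is labelled WT. In the FuOXP NP group mice received nanoparticles loaded with FuOXP, a conjugate of 5-fluorouracil and oxaliplatin, at 10 mg of FuOXP per kg. In the Empty NP group they received unloaded particles. Both groups were injected into a vein 3 times at intervals of 5 days, starting at a tumour volume of about 200 mm3, and the tumours were harvested 24 hours after the final dose. The design names 3 mice in each group, the table holds 1 library per group, and pooling of the mice is not stated. Differences are therefore without a replicate check or a p-value, and higher or lower describes these 2 libraries.

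Living cells keep phosphatidylserine on the inner leaflet of the plasma membrane, and scramblases such as Xkr8, the gene in the study's title, expose it on dying cells. Phagocytes bind it directly or through soluble bridges. Gas6 and protein S (Pros1) link it to the TAM receptors (Tyro3, Axl and Mertk), whose signalling drives uptake and dampens inflammatory responses. Mfge8 links it to integrins that contain the alpha v subunit. Lrp1 and stabilin-1 (Stab1) also serve uptake, and annexin A5 (Anxa5) coats exposed phosphatidylserine and can shield it.

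The FuOXP NP library had 12321 rows above 0, against 14761 in Empty NP. The 20 rows with the highest TPM over both libraries took 81.3% of its total TPM, against 47.2% in Empty NP, and most other genes were listed lower there. The median named gene had a log2 difference of -1.44 on the log2(TPM + 1) scale, FuOXP NP minus Empty NP, which is 2.71-fold lower. TPM steps gave back the reads behind each value, and a typical gene with at least 20 reads in both libraries together was 3.42-fold lower by TPM. Reads recovered over genes with an annotated length summed to 935285 in FuOXP NP and 448394 in Empty NP. Genes above 0 had a median of 4 reads in FuOXP NP and 6 in Empty NP. Markers of epithelium were mostly at 0, with 8 of 10 listed at 0 in each library, Epcam and Krt8 among them. Pooled reads of 11 fibroblast markers were 2.19-fold lower in FuOXP NP (1.83 to 2.61), those of 9 dendritic cell markers 10.7-fold lower (6.14 to 19.9), and those of 7 pan-leukocyte markers 3.97-fold lower (2.79 to 5.71). Most dendritic cell reads in Empty NP were of Zbtb46 (2 in FuOXP NP, 30 in Empty NP), Xcr1 (3, 28) and Clec9a (3, 23). Ccr7 (6, 1) went the other way, and Flt3, Cd209a and Siglech were at 0 in both. Among fibroblast markers Dcn was at 42.1 TPM in FuOXP NP and 54.7 TPM in Empty NP, on 129 and 90 reads. Col1a1 had 3 reads in FuOXP NP and 20 in Empty NP. Rgs5 (6 in FuOXP NP, 0 in Empty NP), Fap (2, 0), Acta2 (1, 0) and Thy1 (3, 2) were higher by TPM in FuOXP NP. Of 12 skeletal muscle markers, 11 were at 0 in FuOXP NP and 1 in Empty NP. Pooled reads of 9 platelet and red cell markers were 1.40-fold lower in FuOXP NP (0.842 to 2.30), an interval that held equality. Their levels summed to more in FuOXP NP, 75.8 TPM against 41.1 TPM in Empty NP, and these markers went both ways. Hbb-bs, a red cell globin, was at 57.1 TPM in FuOXP NP and listed at 0 in Empty NP, while Alas2, a haem enzyme of red cell precursors, was at 7.94 TPM in FuOXP NP and 38.5 TPM in Empty NP, on 10 and 26 reads. The part of these cell types in the values below was not tested. Intervals are exact at 95%, were computed from these reads and hold no other error than that of counting. In a bulk tumour, fewer cells of a type and less RNA per cell cannot be told apart.

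Axl, Lrp1 and Anxa5, the 3 most abundant of the genes, were lower in FuOXP NP by nearly the same factor as the typical gene. Without the top 20 rows in the totals they were 1.16-fold, 1.28-fold and 1.10-fold lower, and all 3 intervals then held equality. Stab1, a receptor of macrophages and sinusoidal endothelium, was listed higher in FuOXP NP by less than counting error and stood 3.93-fold above the typical gene (1.51 to 11.4) on 15 reads in FuOXP NP and 7 in Empty NP. Itgav lay between, and Mertk, Gas6, Pros1 and Mfge8 had 1 to 5 reads a library. On pooled reads the TAM receptors and ligands as an arm differed from the integrin and scavenger arm by less than counting error.

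The promoters of Axl and Stab1 are shown as those of the main TAM receptor, which followed the typical gene, and of the scavenger receptor that stood above it. Each window runs from 250 bases before to 50 after the annotated start (RefSeq, GRCm38.p6), at chr7:25788684-25788983 and chr14:31168592-31168891, both on the minus strand. Capitals mark GGGCGG, the GC box bound by Sp1 factors, and GAGGAA, on either strand. GAGGAA is a longer form, read by the myeloid PU.1, of the core GGAA of ETS factors. Other GGAA letters in the windows are not marked or counted.
Axl: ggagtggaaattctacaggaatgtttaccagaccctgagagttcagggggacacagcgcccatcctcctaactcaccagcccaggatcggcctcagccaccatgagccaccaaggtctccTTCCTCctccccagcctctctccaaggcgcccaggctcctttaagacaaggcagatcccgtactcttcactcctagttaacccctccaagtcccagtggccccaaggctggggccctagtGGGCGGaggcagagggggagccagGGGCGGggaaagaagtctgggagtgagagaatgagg
Stab1: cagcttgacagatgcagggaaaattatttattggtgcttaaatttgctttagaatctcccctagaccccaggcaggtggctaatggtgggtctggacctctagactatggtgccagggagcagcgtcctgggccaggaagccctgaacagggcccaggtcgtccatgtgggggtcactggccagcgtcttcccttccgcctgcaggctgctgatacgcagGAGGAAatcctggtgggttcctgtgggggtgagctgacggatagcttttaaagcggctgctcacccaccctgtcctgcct
The Axl window held 2 GC boxes and 1 GAGGAA, and the Stab1 window held no GC box and 1 GAGGAA. A GC box was found in 8 of the 10 genes' windows, with Stab1 and Anxa5 as the exceptions, against 35.7% of 32851 promoter windows. GAGGAA was in 4 of 10, against 28.3% of all windows. The TATA box letters TATAAA and the AP-1 letters TGANTCA were in none of the 10, against 13.6% and 7.81% of all windows. A match describes letters only.

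The receptor Axl was listed at 12.5 TPM in FuOXP NP and 41.0 TPM in Empty NP, on 33 and 58 reads. The counting intervals of these levels were 8.61 to 17.6 TPM in FuOXP NP and 31.2 to 53.1 TPM in Empty NP. Axl was 3.28-fold lower (2.10 to 5.19) as deposited, and 1.04 times the ratio of the typical gene (0.659 to 1.63). Axl spans chromosome 7 from 25757273 to 25788705, minus strand, by GENCODE vM21 on GRCm38, and its exons overlap no other annotated gene.

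Mertk, the TAM receptor of resident macrophages, was at 2.20 TPM in FuOXP NP and 3.29 TPM in Empty NP, on 5 and 4 reads. Its ratio had an interval from 0.144 to 3.37, which holds both equality and the ratio of the typical gene. Mertk spans chromosome 2 from 128698956 to 128802894 on the plus strand. Tyro3, at 119797733 to 119818104 of the same strand, was listed at 0 in both libraries, where 3 reads would have been 0.923 TPM in FuOXP NP and 1.72 TPM in Empty NP. The TAM receptor level was therefore mostly Axl, which held 85.0% of the summed receptor TPM in FuOXP NP and 92.6% in Empty NP. By reads that was 33 of 38 in FuOXP NP, or 86.8% (71.9 to 95.6), and 58 of 62 in Empty NP, or 93.5% (84.3 to 98.2), so the shares overlapped.

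Both TAM ligands were at low levels, on 3 reads or fewer a library. Gas6, the vitamin K-dependent ligand of all TAM receptors, was at 2.25 TPM in FuOXP NP and 1.40 TPM in Empty NP, on 3 reads and 1 read. Pros1, which binds Mertk and Tyro3, was at 0.467 TPM in FuOXP NP and 1.74 TPM in Empty NP, on 1 and 2 reads. Neither ligand's direction could be told at this depth, as both ratio intervals held equality and the typical gene. Per length, Axl stood 5.57 times above Gas6 in FuOXP NP (1.75 to 28.4) and 29.4 times above it in Empty NP (5.07 to 1180). Mertk stood 4.71 times above Pros1 in FuOXP NP (0.527 to 223) and 1.89 times in Empty NP (0.270 to 20.8), so these levels could not be told apart. Gas6 lies at 13465374 to 13494490 of chromosome 8, minus strand, and Pros1 at 62854307 to 62929346 of chromosome 16, plus strand. Exons of Gas6 overlap those of Tmem255b, which was itself listed at 0 in both libraries.

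**Figure D1:**
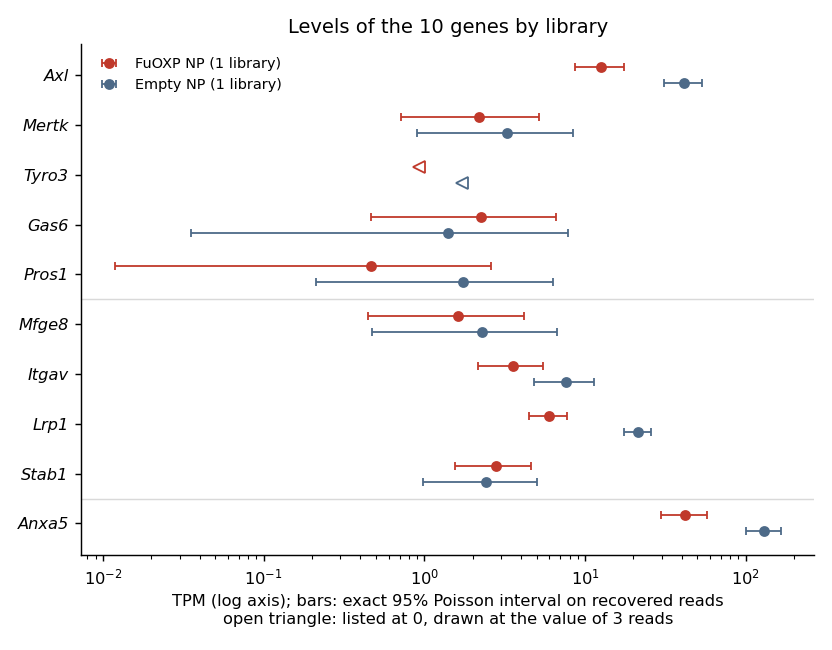
TPM of each of the 10 genes on a log axis in FuOXP NP (red, upper point) and Empty NP (blue, lower point), with exact Poisson intervals on recovered reads. Axl, Lrp1 and Anxa5 have intervals that do not overlap between the libraries, while those of Mertk, Gas6, Pros1, Mfge8 and Stab1 overlap widely and Tyro3 was listed at 0. The share of all genes without overlap is not given. A looser measure, which Itgav also met, is a ratio interval wholly below equality. It held for 84.9% of 3278 named genes with at least 20 reads.

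Among the integrin and scavenger genes, Lrp1 rested on the most reads. This large endocytic receptor, which also takes up calreticulin-coated cells, was at 5.92 TPM in FuOXP NP and 21.3 TPM in Empty NP, on 55 and 106 reads. It was 3.60-fold lower (2.57 to 5.08) as deposited and 0.951 times the typical gene's ratio (0.674 to 1.33). Lrp1 spans chromosome 10 from 127538161 to 127621148 on the minus strand, with 17717 exon bases and no exon overlap. It made up 63.1% of the summed TPM of 10 LDL receptor family genes in FuOXP NP and 64.8% in Empty NP. Its endoplasmic reticulum chaperone Lrpap1 was at 1.39 TPM in FuOXP NP and 5.19 TPM in Empty NP, on 3 and 6 reads.

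Itgav encodes the alpha v subunit, which binds Mfge8 when paired with the beta 3 or beta 5 subunit. It was at 3.55 TPM in FuOXP NP and 7.62 TPM in Empty NP, on 20 and 23 reads, and 2.15-fold lower (1.13 to 4.12) as deposited. The interval held the typical gene's 3.42-fold, and without the top 20 rows in the totals the ratio turned to 1.31 (0.684 to 2.50). Itgav spans chromosome 2 from 83724397 to 83806916, plus strand. Its exons overlap those of the opposite-strand transcript Gm13684, and the sources used here do not say whether reads were counted by strand.

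The 3 measured beta partners of alpha v lay above the median gene, and 2 of 3 did with a pseudocount of 5 TPM. Itgb3 passed the 1 TPM limit through Empty NP alone. Itgb5 was almost equal, at 7.38 TPM in FuOXP NP and 7.42 TPM in Empty NP. Its recovered values, 13.7 and 7.40, were not whole and were rounded to 14 and 7 reads. On the rounded reads its ratio interval was 1.38 to 10.7 times that of the typical gene, and it depends on that rounding. Itgb1, which pairs with many alpha subunits, was at 42.1 TPM in FuOXP NP and 90.8 TPM in Empty NP, on 90 and 104 reads, with an interval of 1.18 to 2.12 times the typical gene. Itgb3 was at 0.970 TPM in FuOXP NP and 2.41 TPM in Empty NP on 3 and 4 reads, Itgb8 had 1 read in FuOXP NP and 2 in Empty NP, and Itgb6 was listed at 0 in both. On these rounded reads the FuOXP NP to Empty NP ratio of Itgb5 was 2.27 times that of Itgav (0.690 to 8.07). The ratios of alpha v and beta 5 could therefore not be told apart.

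The soluble bridge Mfge8, which phagocytes secrete, was at 1.63 TPM in FuOXP NP and 2.28 TPM in Empty NP, on 4 and 3 reads. It lies at 79133768 to 79149060 of chromosome 7, minus strand, with no exon overlap. Pooled over the bridging proteins Gas6, Pros1 and Mfge8 there were 8 reads in FuOXP NP and 6 in Empty NP, 1.40-fold lower (0.400 to 4.60). That interval held both equality and the typical gene.

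Stab1 was at 2.78 TPM in FuOXP NP and 2.42 TPM in Empty NP, on 15 and 7 reads. As deposited the ratio was 1.15 (0.441 to 3.33), so the listed levels did not differ beyond counting error. Relative to the typical gene it was 3.93-fold higher (1.51 to 11.4), and without the top 20 rows it was 3.24-fold higher (1.24 to 9.38). The Stab1 ratio was 4.10 times that of Lrp1 (1.47 to 12.6), 3.72 times that of Axl (1.27 to 12.0) and 3.53 times that of Anxa5 (1.23 to 11.2). Against Itgav it was 2.43 times (0.748 to 8.57), an interval that holds equality. These pairs were chosen with the values known.

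Stab1 spans chromosome 14 from 31139013 to 31168641, minus strand, and its exons overlap those of Nt5dc2 on the plus strand. Nt5dc2 was at 1.36 TPM in FuOXP NP and 5.06 TPM in Empty NP. Its recovered values, 1.69 and 3.38, were not whole and were rounded to 2 and 3 reads. The ratio of these rounded reads, 0.357 (0.0298 to 3.12), is not that of the TPM values and gave no direction. Pooled markers of the cells that carry Stab1 were lower in FuOXP NP, as was the typical gene. Of 13 macrophage and monocyte markers, 2 were at 0 in FuOXP NP (Cd68 and Vsig4) and 1 in Empty NP (Vsig4). Their levels summed to 331 TPM in FuOXP NP and 584 TPM in Empty NP, and their pooled reads, 362 and 393, were 2.03-fold lower (1.75 to 2.34), less than the 3.42-fold of the typical gene. Lyz2, the macrophage lysozyme, was at 163 TPM in FuOXP NP and 194 TPM in Empty NP. Csf1r, the receptor for macrophage growth factor, was at 46.9 TPM in FuOXP NP and 114 TPM in Empty NP. Itgam, with 7 reads in FuOXP NP and 2 in Empty NP, went the other way. Of 10 endothelial markers, 5 were at 0 in FuOXP NP and 4 in Empty NP, Tie1, Lyve1 and Vwf in both. Endothelial levels summed to 4.61 TPM in FuOXP NP and 35.4 TPM in Empty NP, with 12 and 37 pooled reads, 5.76-fold lower (2.94 to 12.1). That interval held the typical gene's 3.42-fold. Egfl7, whose exons overlap those of Agpat2 and Gm20532, gave 3 reads in FuOXP NP and 21 in Empty NP. Kdr, with 3 and 1, and Emcn, with 2 and 0, went the other way. The part of either cell type in the Stab1 value was not tested.

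**Figure D2:**
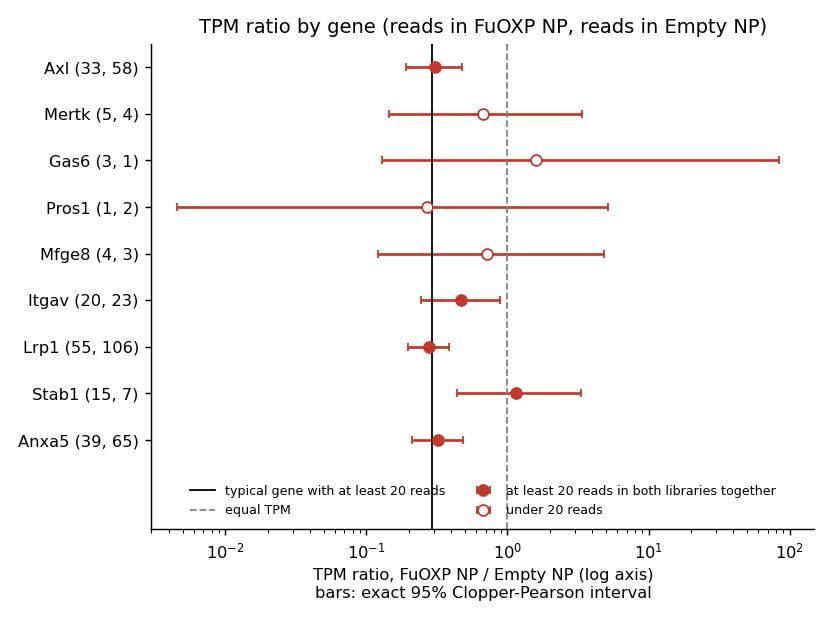
TPM ratio of FuOXP NP to Empty NP on a log axis for the 9 genes above 0, with exact Clopper-Pearson intervals and the recovered reads of each library in brackets. Axl, Lrp1, Anxa5 and Itgav have intervals that include the typical gene (solid line, 0.292) and lie below equality (dashed line), and Stab1 alone has one wholly above the typical gene.

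Anxa5 had the highest level of the 10 genes in both libraries, at 41.9 TPM in FuOXP NP and 130 TPM in Empty NP, on 39 and 65 reads. It was 3.11-fold lower (2.06 to 4.75) as deposited and 1.10 times the typical gene's ratio (0.720 to 1.66). It spans chromosome 3 from 36448923 to 36475894 on the minus strand with no exon overlap. Among 12 annexins it ranked 2 in FuOXP NP, with 28.0% of their summed TPM, and 1 in Empty NP, with 36.0%. Anxa1, which dying cells also display, was at 50.5 TPM in FuOXP NP and 66.9 TPM in Empty NP, on 77 and 55 reads. The Anxa1 ratio was 2.32 times that of Anxa5 (1.33 to 4.09), a pair chosen with the values known. Of the 11 other annexins, 8 were measured, with 5 above the median gene and 3 below, or 3 above and 5 below with a pseudocount of 5 TPM. Of the 3 below, Anxa8 and Anxa9 passed the 1 TPM limit through Empty NP alone. Anxa2 was at 32.7 TPM in FuOXP NP and 88.8 TPM in Empty NP, and Anxa7 at 7.08 TPM in FuOXP NP and 12.0 TPM in Empty NP.

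Ordered by level, Anxa5, Axl and Lrp1 led in that order in both libraries, and each step among them was beyond counting error. Anxa5 stood 3.35 times above Axl in FuOXP NP (2.05 to 5.49) and 3.17 times in Empty NP (2.19 to 4.60). Axl stood 2.11 times above Lrp1 in FuOXP NP (1.33 to 3.31) and 1.93 times in Empty NP (1.37 to 2.68). Itgav came next in both, 1.67 times below Lrp1 in FuOXP NP (0.984 to 2.94) and 2.79 times below it in Empty NP (1.77 to 4.60). Further down, no neighbours in the order of either library differed beyond counting error.

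Set against the median named gene on the log2(TPM + 1) scale, the 9 measured genes had a median difference of 0.54, with 6 above it and 3 below. That median is the value of Pros1, which rests on 3 reads and passed the 1 TPM limit through Empty NP alone. By plain TPM ratio Pros1 was at 0.917 times the typical gene, and with a pseudocount of 0.1 TPM it stood at 0.12. Adding 1 TPM draws low genes toward a difference of 0, which lies above the median gene's -1.44. Without Pros1 the median was 0.77, and over the 5 genes with at least 20 reads it was -0.17. Before centring, on the same scale, the median of the 9 was -0.90, beside -1.44 over the 9488 named genes that averaged at least 1 TPM. At least 2-fold lower on that scale were 3 of the 9, Axl, Lrp1 and Anxa5, against 69.8% of all these genes. By plain TPM ratio Itgav and Pros1 were past 2-fold too, at 2.15-fold and 3.73-fold lower, and the share of all genes by that ratio is not given. None was 2-fold higher, beside 2.34%. At least 2-fold above the median gene were 4, Gas6 at 1.88, Stab1 at 1.58, Mfge8 at 1.12 and Mertk at 1.02, against 12.6% of all genes. None was 2-fold below it, beside 12.2%. Apart from Stab1 these 4 had under 10 reads in all. These 4 also stood 2-fold above it with a pseudocount of 0.1 TPM, Gas6 at 2.47, Stab1 at 2.01, Mfge8 at 1.36 and Mertk at 1.26, and with 5 TPM added none of the 9 did, Gas6 being at 0.91. On recovered reads the count was 4. Shares of all genes under these alternatives are not given, so these counts cannot be set against all genes. Axl at -0.20 and Anxa5 at -0.17 changed sign in 4 of 7 alternatives, while Lrp1 at -0.25 stayed below the median gene in all 7. Among these 7, summing the rows of a repeated symbol could not move any member.

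The 5 genes with at least 20 reads were Axl, Itgav, Lrp1, Stab1 and Anxa5. Of these, 4 had ratio intervals wholly below equality, against 84.9% of 3278 named genes with as many reads. Stab1 alone had an interval wholly above the typical gene, against 16.8% of those genes, and none lay wholly below it, against 14.2%. A count of 1 in 5 is near that background.

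The TAM receptors and their ligands pooled 42 reads in FuOXP NP and 65 in Empty NP, 2.89-fold lower (1.93 to 4.37). The integrin and scavenger arm (Mfge8, Itgav, Lrp1 and Stab1) pooled 94 reads in FuOXP NP and 139 in Empty NP, 2.76-fold lower (2.11 to 3.63). The ratio of the TAM arm was 0.956 times that of the other arm (0.581 to 1.56). The medians of the arms differed by -0.04 on the log2 scale, with values of 0.78 for the TAM arm and 0.82 for the integrin and scavenger arm relative to the median gene. The TAM median lies midway between Mertk and Pros1, low genes whose values depend on the added 1 TPM. Without Pros1 the difference turned to 0.20. The most abundant receptor of each arm, Axl in one and Lrp1 in the other, had an interval that held the typical gene.

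**Figure D3:**
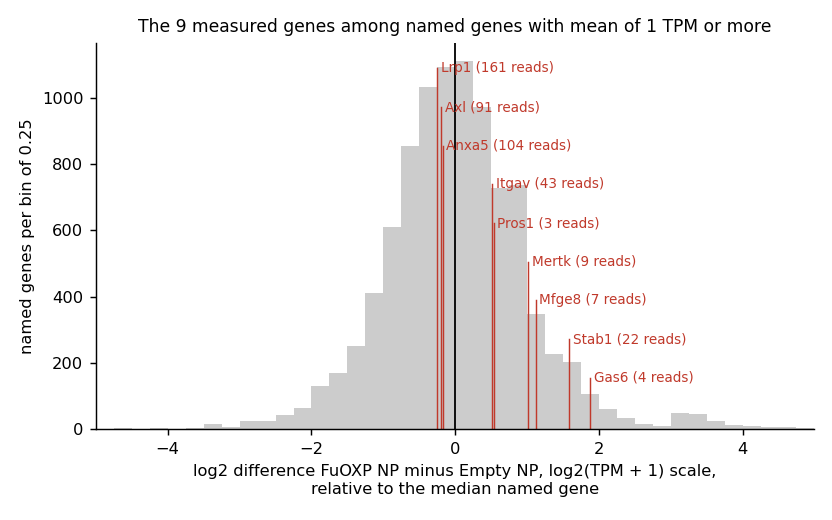
Distribution over 9488 named genes of the log2 difference, FuOXP NP minus Empty NP, relative to the median gene (grey bars), with the 9 measured genes as red lines and their reads in both libraries together. The 3 genes with most reads lie within 0.25 of the median gene, and the genes with the highest differences, Gas6 and Stab1, rest on 4 and 22 reads.

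Of 19 further phosphatidylserine and uptake receptors, 13 were listed at 0 in FuOXP NP and 9 in Empty NP, with Timd4, Stab2 and Trem2 among those at 0 in FuOXP NP alone. Of the 6 that were measured, 3 lay above the median gene and 3 below, or 4 above and 2 below on recovered reads. Of the 3 below, Timd4 and Cd300lb were at 0 in FuOXP NP and passed the 1 TPM limit through Empty NP alone. Mrc1, the mannose receptor, was at 5.09 TPM in FuOXP NP and 12.3 TPM in Empty NP, and Msr1, a class A scavenger receptor, at 7.82 TPM in FuOXP NP and 25.3 TPM in Empty NP. Both had intervals that held the typical gene.

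Of 13 other bridging proteins and eat-me signals, 7 were measured, with 6 above the median gene and 1 below, or 2 above and 5 below with a pseudocount of 5 TPM. Thbs1, which encodes thrombospondin-1, passed the 1 TPM limit through Empty NP alone. Calr, calreticulin, which marks cells for uptake through Lrp1, was at 64.3 TPM in FuOXP NP and 138 TPM in Empty NP, on 97 and 112 reads, with an interval of 1.20 to 2.10 times the typical gene. C1qa, a chain of the complement opsonin C1q, had 20 reads in each library, at 36.7 TPM in FuOXP NP and 68.5 TPM in Empty NP. C1qc, another chain, was at 8.89 TPM in FuOXP NP and 31.4 TPM in Empty NP and lay below the median gene.

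The 4 measured do-not-eat-me genes lay below the median gene, although 1 lay above it with a pseudocount of 5 TPM. Of the 4, Pecam1 passed the 1 TPM limit through Empty NP alone and had to be lower in FuOXP NP. The other 2 of the list were at 0 in both libraries. Cd47, the ligand of the inhibitory receptor Sirpa, was at 2.53 TPM in FuOXP NP and 13.5 TPM in Empty NP, on 8 and 24 reads. Qpctl, the enzyme that modifies Cd47 for that binding, was at 1.77 TPM in FuOXP NP and 14.0 TPM in Empty NP, on 4 and 17 reads. Both intervals held the typical gene, and exons of Qpctl overlap those of Fbxo46. Of 13 measured engulfment signalling genes, 4 lay above the median gene and 9 below, or 6 above and 7 below on recovered reads. Of the 9 below, 7 passed the 1 TPM limit through Empty NP alone, Trio, Dock1, Rhog, Bcar1 and Vav1 among them, and had to be lower in FuOXP NP. Trio, an exchange factor for the engulfment GTPases RhoG and Rac1, was at 0.332 TPM in FuOXP NP and 5.27 TPM in Empty NP, on 4 and 35 reads, an interval of 0.0541 to 0.586 times the typical gene. Dock1, which activates Rac1 with Elmo1, was at 0.818 TPM in FuOXP NP and 7.25 TPM in Empty NP, with an interval that held the typical gene.

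Of the genes that act on the TAM receptors, 12 of 16 were measured, with 6 above the median gene and 6 below. Of these, 3 passed the 1 TPM limit through Empty NP alone and Vkorc1, an enzyme of vitamin K recycling, through FuOXP NP alone. Among the sheddases that cut Axl and Mertk from the cell surface, Adam10 was at 5.82 TPM in FuOXP NP and 10.1 TPM in Empty NP, on 15 and 14 reads. Adam17 was at 1.33 TPM in FuOXP NP and 9.96 TPM in Empty NP, on 5 and 20 reads. Both intervals held the typical gene, and the Adam10 ratio was 4.17 times that of Adam17 (1.11 to 18.2), a pair chosen with the values known. Pik3r1, the regulatory subunit of phosphoinositide 3-kinase downstream of TAM signalling, was at 3.22 TPM in FuOXP NP and 20.1 TPM in Empty NP, with an interval of 0.298 to 0.953 times the typical gene.

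**Figure D4:**
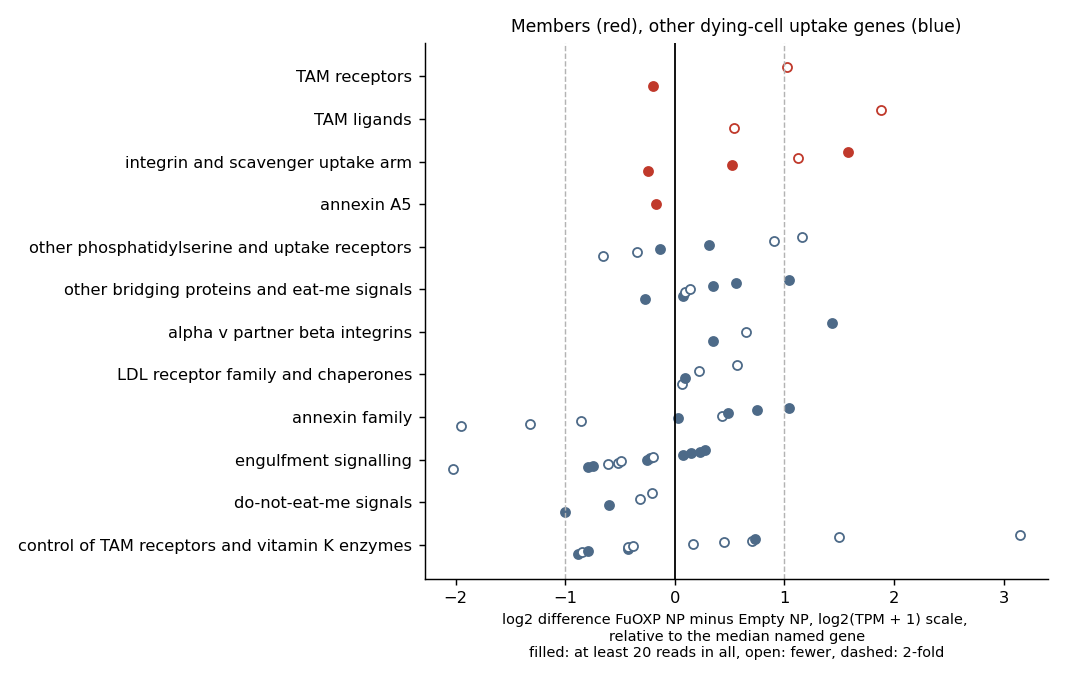
Log2 difference relative to the median gene for members (red) and other uptake genes (blue) that averaged at least 1 TPM, one row per list, filled where a gene had at least 20 reads in both libraries together. The 4 measured do-not-eat-me genes, 1 of which passed the 1 TPM limit through Empty NP alone, lie left of the median gene and all 3 measured alpha v partner integrins right of it, and most genes fall inside the dashed 2-fold lines.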

How the data were processed

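RNA from 1 FuOXP NP and 1 Empty NP library was sequenced in paired-end mode, per the labels' protocols. The authors deposited TPM values, 1 column per group. GRCm38, Cuffdiff, Cufflinks 2.2.1 and STAR 2.6.1a appear in the submitters' processing notes, without roles. TPM is relative, so a few very abundant rows lower all others.

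Of 53927 rows, 22240 without a symbol and 26 with a symbol turned into a date were left out. Adjacent rows with equal values under different symbols counted once (54 rows), and the highest row of a repeated symbol was kept. Differences were log2((FuOXP NP + 1)/(Empty NP + 1)) among genes averaging at least 1 TPM, which understates changes of low genes, centred on the median named gene, with 2-fold as the limit and no test.

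Reads were recovered as TPM times GENCODE vM21 exon length over the TPM of 1 read on 1000 exon bases, 1.91 in FuOXP NP and 3.56 in Empty NP. Of genes under 10 reads, 80.8% in FuOXP NP and 80.9% in Empty NP came within 0.01 of a whole number. All values were rounded to whole reads, also those of Itgb5 and Nt5dc2, which were not whole. Whether a unit is a read or a pair is unknown, and the sums are far below the sequenced reads in the labels. Levels have exact Poisson intervals, ratios Clopper-Pearson intervals, and ratios of ratios exact conditional intervals. The steps were tested on simulated data.

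The members, gene lists and tests were chosen with earlier results of these data known. Named were all members, the alpha v partner integrins, Lrpap1, up to 4 genes per other list with at least 20 reads and the largest differences, and up to 2 abundant markers per list. Overlapping genes, genes listed at 0 and the pairs compared were named after their values were seen. A macrophage marker and a do-not-eat-me gene are not reported here. Alternatives are given with the closing values. Python 3.11.15, numpy 2.4.6, pandas 2.3.3, scipy 1.17.1 and matplotlib 3.10.9 were used.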

Additional observations from a re-analysis of the deposited data

How the results depend on the processing

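With 1 library per group no replicate could be left out. No paired analysis was possible because each group has 1 library. The number of genes at least 2-fold above the median gene, 4 of 9, was 2 with no filter, 0 with a pseudocount of 5 TPM, 0 among those averaging at least 5 TPM, and 1 among the 5 with at least 20 reads, a setting added after seeing the data. The number at least 2-fold lower before centring, 3 on the log2(TPM + 1) scale, was 0 without the top 20 rows. It was 5 both with a pseudocount of 0.1 TPM and on recovered reads. Shares of all genes under these alternatives are not given, so these counts do not tell a shift of the members from a shift of all genes. The median relative to the median gene, 0.54, was 0.016 over genes averaging at least 5 TPM and -0.17 over those with at least 20 reads. The last values rest on fewer genes by construction. The difference between the arm medians ran from -0.72 to 0.26 over its alternatives, and no counting interval is given for it. At -0.72, among genes with at least 20 reads, the TAM arm was Axl alone. Without Pros1 the difference was 0.20 and the median of the genes was 0.77 (also added after seeing the data). Of 58 values of single genes under the alternatives, 57 moved by less than their counting interval. Summing the rows of a repeated symbol could not move any of them, as each member had a single row. For genes with few reads the interval was too wide for this count to be informative. Depth limits Mertk, Gas6, Pros1 and Mfge8, with 3 to 9 reads each in both libraries together.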
